A study of Mus musculus with 2 samples.

Results

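Chemokine-high alveolar fibroblasts are lung fibroblasts in which the chemokine genes Cxcl9, Cxcl10 and Ccl7 together gave at least 0.5% of the cell's transcript molecules. They numbered 137 of 1008 alveolar fibroblasts, and of 4581 cells kept in 2 single-cell libraries of mouse lung. The cells came from lungs dissociated 7 days after labelling-4T1 cells had been given intravenously. The 4T1 line comes from a mammary tumour of the mouse and forms lung metastases, and its labelling form is known to secrete an mCherry protein that enters host cells close by. Cells negative for CD45, the surface protein shared by leukocytes, were sorted by flow cytometry into a library labelled Cherry_Positive and a library labelled Cherry_Negative. Both libraries thus share the tumour cell injection, the day and the CD45- sort, and neither is a lung without tumour cells. The labels give neither mouse strain, sex, age, number of animals per library nor irradiation for these 2 samples.

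Chemokines are small secreted proteins that guide leukocytes through tissue. Cxcl9 and Cxcl10 are ligands of Cxcr3, a receptor of activated T cells and natural killer cells, and are classic interferon target genes. Ccl7, like Ccl2, attracts monocytes mainly through Ccr2. Alveolar fibroblasts lie in the alveolar wall beside the epithelium, which they support, and are marked by the transcription factor Tcf21 and the matrix protein Npnt.

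Members were chosen on raw UMIs (unique molecular identifiers, which count transcript molecules) in cells with at least 500 genes and at most 10% mitochondrial UMIs. A mesenchymal cell had at least 4 UMIs of Col1a1, Col1a2, Col3a1, Bgn and Dcn, and more of these than of 4 endothelial genes. An alveolar fibroblast had at least 2 UMIs over Npnt, Tcf21, Limch1, Ces1d, Fgfr4 and Slc7a10, and more of these than of the matching sums for adventitial fibroblasts, myofibroblasts and pericytes. Measured chemokine levels therefore chose the cells, and every gene was counted in the same cells. All differences below describe the groups so formed, and none is a test. With 1 library per group and cells that are not replicates, no p-value was computed. The intervals given are at 95% and reflect counting error alone.

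The genes behind the rule lie in 2 clusters of the genome. On GRCm38 (GENCODE annotation), Cxcl10 lies on chromosome 5 at 92346638 to 92348889 and Cxcl9 at 92321347 to 92328079, both on the minus strand. Ccl7 lies on chromosome 11 at 82045712 to 82047525, between Ccl2 at 82035571 to 82037453 and Ccl11 at 82057823 to 82062955, all on the plus strand. Interferon signals reach promoters through the ISRE, bound by interferon regulatory factors, and the GAS element, and inflammatory signals through kappa-B elements. The 250 bases before the annotated start were searched on both strands for GAAA, 2 free bases and GAAA (ISRE), for TTCNNNGAA (GAS), where N is any base, and for GGGA, 2 free bases and TTCC (kappa-B), in RefSeq promoters of GRCm38.p6. Of 27025 promoters, 3.46% held the ISRE letters, 8.13% the GAS letters and 1.36% the kappa-B letters. The promoters shown are those of Cxcl10 and Cxcl9 of the rule, of Fam26f (Calhm6 in RefSeq) and Gbp5, which were among the genes most different in the higher direction, and of Inmt, an alveolar fibroblast gene that was lower. Each reads 5′ to 3′ towards the start, and capitals mark the matches.
Cxcl10, chr5:92348890-92349139, minus strand: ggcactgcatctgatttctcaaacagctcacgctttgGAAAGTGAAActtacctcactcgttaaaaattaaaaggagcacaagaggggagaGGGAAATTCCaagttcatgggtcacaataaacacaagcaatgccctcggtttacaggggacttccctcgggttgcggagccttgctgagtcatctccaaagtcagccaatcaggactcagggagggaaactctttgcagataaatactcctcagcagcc
Cxcl9, chr5:92328080-92328329, minus strand: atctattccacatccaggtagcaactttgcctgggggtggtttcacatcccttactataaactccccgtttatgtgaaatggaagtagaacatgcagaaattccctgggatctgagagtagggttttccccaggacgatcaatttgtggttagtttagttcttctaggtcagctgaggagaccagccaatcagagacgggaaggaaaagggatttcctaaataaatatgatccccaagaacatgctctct
Fam26f, chr10:34127973-34128222, minus strand: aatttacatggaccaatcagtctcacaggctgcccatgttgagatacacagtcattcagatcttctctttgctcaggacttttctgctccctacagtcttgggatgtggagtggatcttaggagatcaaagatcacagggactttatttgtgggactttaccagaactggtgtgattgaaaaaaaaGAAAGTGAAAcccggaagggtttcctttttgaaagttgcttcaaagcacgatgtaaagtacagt
Gbp5, chr3:142496684-142496933, plus strand: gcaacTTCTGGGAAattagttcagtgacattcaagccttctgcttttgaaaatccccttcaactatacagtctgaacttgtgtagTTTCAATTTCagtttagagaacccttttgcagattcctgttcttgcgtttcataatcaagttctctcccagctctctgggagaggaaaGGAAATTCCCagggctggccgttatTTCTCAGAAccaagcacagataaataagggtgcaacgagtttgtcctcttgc
Inmt, chr6:55174991-55175240, minus strand: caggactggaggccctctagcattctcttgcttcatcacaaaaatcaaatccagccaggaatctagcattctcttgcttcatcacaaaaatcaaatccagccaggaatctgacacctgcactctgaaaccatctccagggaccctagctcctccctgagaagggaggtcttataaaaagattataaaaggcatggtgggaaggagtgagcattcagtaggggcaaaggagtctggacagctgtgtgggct

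The Cxcl10 promoter held the ISRE letters 213 to 204 bases before the start and the kappa-B letters 159 to 150 bases before it. Fam26f held the ISRE letters 64 to 55 bases before its start. Gbp5 held the ISRE letters at 165 to 156 bases, GAS letters at 245 to 237 and at 52 to 44 bases, and kappa-B letters at 77 to 68 bases. In Cxcl9 and Inmt none of the 3 patterns lay in the window. Over the interferon gamma response list used below, 12 of 18 genes with a promoter entry held the ISRE letters (66.7%) and 10 held the GAS letters (55.6%). Over the type I interferon list, 10 of 21 held the ISRE letters (47.6%). Of the 15 genes that ranked highest in members, 9 had a promoter entry. The ISRE letters lay in 3 of these 9 (Fam26f, Gbp5 and Rsad2), and the GAS and kappa-B letters in 1 each, Gbp5. Over the MHC class I list, 3 of 19 held the ISRE letters (15.8%) and 2 the GAS letters (10.5%). Over the NF-kB list, 2 of 17 held the kappa-B letters (11.8%), 6 the GAS letters (35.3%) and 1 the ISRE letters (5.88%). Of 17 genes on the list of alveolar fibroblast identity, 0 held the ISRE letters and 1, Pcolce2, the GAS letters. A match describes the letters and not a bound site.

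Members made up 136 of 620 alveolar fibroblasts in the Cherry_Positive library, or 21.9% (exact binomial interval 18.7 to 25.4), and 1 of 388 in the Cherry_Negative library, or 0.258% (0.00653 to 1.43). They formed 7.68% of kept Cherry_Positive cells and 0.0356% of kept Cherry_Negative cells. In the members of the Cherry_Positive library the 3 chemokines gave a lowest share of 0.523%, a median of 1.50% and a highest share of 4.80% of a cell's UMIs. Among the other 484 Cherry_Positive alveolar fibroblasts the median was 0.0130% and the highest 0.486%, and among the other 387 Cherry_Negative ones the highest was 0.375%. Near the limit, 14 cells between 0.5% and 0.75% had a median of 0.672%, and 34 cells between 0.25% and 0.5% had a median of 0.390%. The shares ran without a gap across the limit, so the group is a range of a continuous measure.

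**Figure D1:**
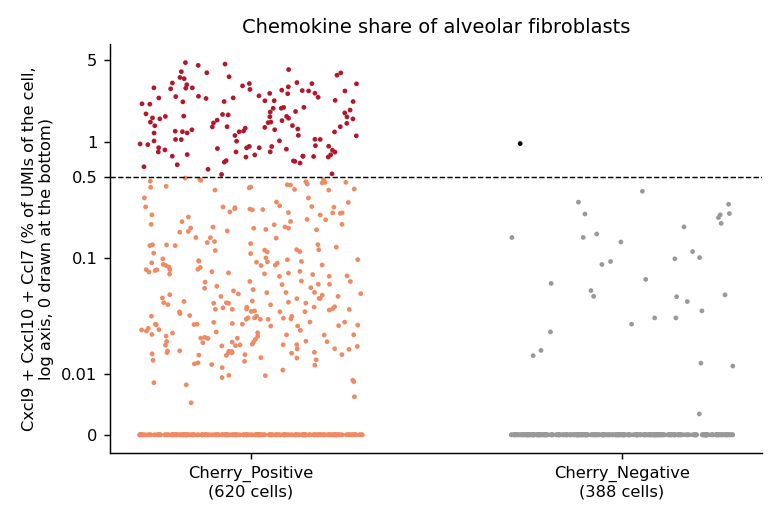
Each point is an alveolar fibroblast, with the share of its UMIs from Cxcl9, Cxcl10 and Ccl7 on a log axis (0 drawn at the bottom) and the 0.5% limit as a dashed line. Above the line lie 136 of 620 Cherry_Positive cells and 1 of 388 Cherry_Negative cells.

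In all there were 10094853 UMIs over 1826 barcodes in the Cherry_Positive library (median 4324 per barcode) and 11632459 UMIs over 2861 barcodes in the Cherry_Negative library (median 2971). The 2 libraries shared 13 barcodes, 1 of them of a member. Members were deeper than the other cells, with medians of 5681 UMIs in members, 4158 in other Cherry_Positive and 3113 in other Cherry_Negative alveolar fibroblasts. The part of this difference in the results was not tested, and levels are given as CPM, that is UMIs of a gene scaled to the group's total in the usual counts-per-million form. Mitochondrial UMIs had medians of 2.36% in members and 2.79% in other Cherry_Positive alveolar fibroblasts. Members rested on fewer UMIs of the 6 alveolar fibroblast genes of the rule, with a median of 9 per member against 15 in other Cherry_Positive and 18 in other Cherry_Negative cells.

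Markers of leukocytes, endothelium and mesothelium were at or near 0 in members, while epithelial transcripts were present at a low level. The 136 cells held 7 UMIs of 6 leukocyte genes, at most 1 in a cell, with Ptprc and Coro1a at 0. They held 24 UMIs of 11 macrophage and monocyte genes, of which 9 were at 0, and 1 UMI of the T and natural killer cell genes. Endothelial genes gave 36 UMIs, at most 2 in a cell. Epithelial genes gave 614 CPM in members, with Epcam and Cdh1 at 0 and at most 14 UMIs in a cell. They gave 13173 CPM in other Cherry_Positive cells, where 1 cell held 11812 of 32522 UMIs. Other Cherry_Negative cells held 10203 CPM, with 4781 of 13430 UMIs in 1 cell. Cherry_Positive endothelial cells, which should lack these genes, held 3883 CPM, with 2608 of 3911 UMIs in 1 cell. Per cell, the deeper members did not hold fewer epithelial UMIs than other Cherry_Positive cells, with medians of 3 and 2. At least 3 such UMIs were found in 61.8% of members and 47.3% of those other cells. The medians were 7 in other Cherry_Negative and 4 in endothelial cells. Of 1893 UMIs of 9 carcinoma genes in members, 1859 were Lcn2, an acute phase gene described below, and Epcam was at 0. Pericyte genes gave 38 UMIs and mesothelial genes 11. Adventitial fibroblast genes stood at 2095 CPM in members and 1636 CPM in other Cherry_Positive cells, and myofibroblast genes at 908 CPM and 898 CPM. Of the adventitial sums, Ly6a, an interferon target described below, gave 1371 CPM in members and 213 CPM in other Cherry_Positive cells. The higher adventitial sum in members thus rested on Ly6a. The 11 alveolar fibroblast markers, Pdgfra and Inmt among them, were all detected in members, with a summed level of 6494 CPM in members, 11780 CPM in other Cherry_Positive and 20384 CPM in other Cherry_Negative cells. All of the 11 but Pdgfra and Inmt were genes of the rule, so their detection was largely set by the choice of cells. The endothelial, adventitial, myofibroblast and pericyte sums likewise hold genes by which the rule kept such cells out.

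Cxcl10 was the leading chemokine of most members. It was detected in all 136, was the highest of the 3 genes in 118 (86.8%), and gave 70.6% of their chemokine UMIs. A member held between 1 and 258 Cxcl10 UMIs, with a median of 67. Ccl7 ranged between 0 and 156 UMIs with a median of 7, and was at 0 in 22 members. Cxcl9 ranged between 0 and 214 UMIs with a median of 1, and was at 0 in 57 members. All 3 genes were detected together in 68 members, so Cxcl10 was common to the group while Cxcl9 and Ccl7 were each found in a subset. As levels, Cxcl10 stood at 12687 CPM in members, 395 CPM in other Cherry_Positive and 88.9 CPM in other Cherry_Negative alveolar fibroblasts. Ccl7 stood at 2995, 178 and 12.2 CPM in the same order of groups. Cxcl9 stood at 2288 CPM in members and 51.8 CPM in other Cherry_Positive cells, and had no UMI in other Cherry_Negative cells, where the limit of 3 counts allows 2.28 CPM. These 3 genes chose the cells, so the levels only show what the rule picked.

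**Figure D2:**
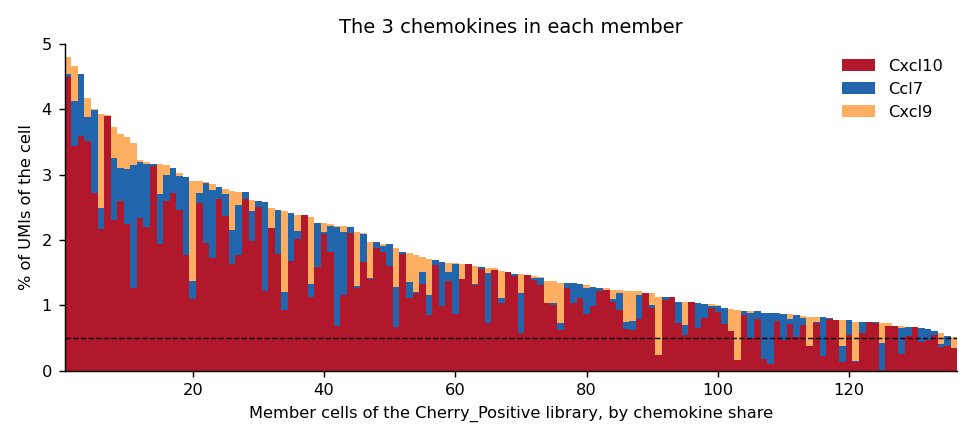
Each bar is 1 of the 136 Cherry_Positive members, ordered by chemokine share, and the stacked colours give the percent of the cell's UMIs from Cxcl10, Ccl7 and Cxcl9, with the 0.5% limit dashed. Cxcl10 fills most of the bar in most members, while Ccl7 is at 0 in 22 members and Cxcl9 in 57.

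The single Cherry_Negative member held 5704 UMIs, of which the 3 chemokines gave 0.964%. Its Cxcl10 stood at 7363 CPM and its Cxcl9 at 2279 CPM, and it held no Ccl7 UMI. Saa3 reached 21038 CPM, the interferon-induced GTPase Iigp1 4383 CPM and Cd74, a class II chaperone, 3506 CPM in it. It carried these transcripts without the Ccl7 seen in most Cherry_Positive members, but 1 cell allows no statement on the Cherry_Negative library.

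Against the other 484 alveolar fibroblasts of the same library, the members had higher levels of monocyte chemokines, interferon targets, antigen presentation genes, acute phase genes and metallothioneins, and lower levels of genes that mark the resting alveolar fibroblast. A gene was called where its CPM ratio was at least 2, or at most 0.5, and the counting interval left out 1, among genes with at least 30 UMIs over both groups. By this rule 323 of 7995 genes were higher in members (4.04%) and 565 lower (7.07%). The median log2 ratio over all 7995 genes was -0.17. Scaling by a trimmed mean of log ratios brought this median to 0.0046 and gave 423 higher and 369 lower genes, so 53.4% of calls were higher against 36.4% with CPM. Ratios below are of CPM. Other Cherry_Negative alveolar fibroblasts are given as a further set of cells, and the contrasts with them were added after the data had been seen. Against those, members were higher in 578 of 6798 genes (8.50%) and lower in 1031 (15.2%), and the other Cherry_Positive cells were higher in 378 of 8553 (4.42%) and lower in 398 (4.65%).

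**Figure D3:**
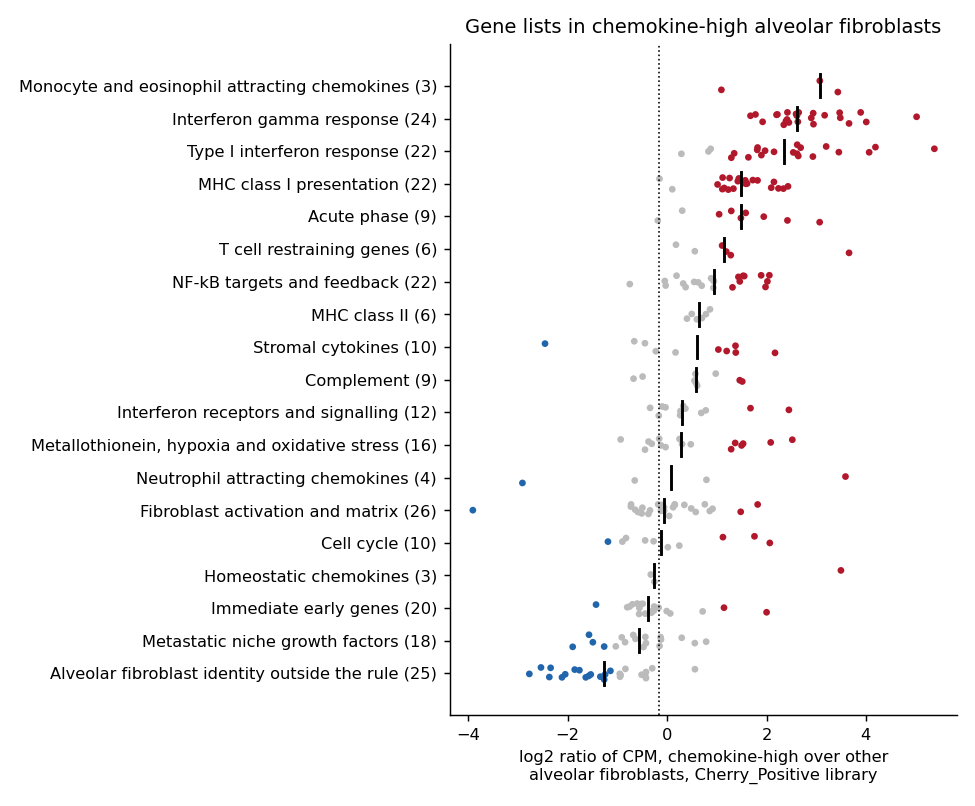
Each point is a gene of a list, placed by its log2 ratio of CPM in chemokine-high over other alveolar fibroblasts of the Cherry_Positive library, with red for genes called higher, blue for genes called lower and grey for the rest, and the number of genes measured in brackets; black bars are list medians and the dotted line is the median of all genes, -0.17. All 24 interferon gamma response genes are red, and 15 of 25 identity genes are blue. The lists were chosen with earlier results of these data known.

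Among the further chemokines, those that attract monocytes and eosinophils stood out. Ccl2, the main ligand of Ccr2 on monocytes, stood at 6927 CPM in members, 640 CPM in other Cherry_Positive and 227 CPM in other Cherry_Negative alveolar fibroblasts. The member level was 10.8 times that of the other Cherry_Positive cells (10.2 to 11.4). Ccl11, an eosinophil chemokine, was 8.46 times higher (6.25 to 11.6), at 199 CPM in members against 23.5 CPM, and Ccl8 was 2.12 times higher at low levels, where 1 cell held 88.7% of the UMIs of the other cells. Cxcl16, a membrane-bound chemokine that binds Cxcr6 on T cells, stood at 356 CPM in members and 113 CPM in other Cherry_Positive cells, a ratio of 3.16 (2.67 to 3.73). Ccl5, a T cell and monocyte chemokine, stood at 477 CPM in members and 12.6 CPM in other cells, but 52.7% of its member UMIs lay in 1 cell. At 2000 UMIs per cell, a Ccl5 UMI was found in 8.96% of members (4.71 to 15.1), 3.15% of other Cherry_Positive alveolar fibroblasts, 2.90% of Cherry_Positive endothelial cells and 10 of 100 Cherry_Positive epithelial cells. Unthinned, these shares were 19.1%, 4.96%, 3.97% and 21.8%, at median depths of 5681, 4158, 3237 and 6170 UMIs, so the share of members with a UMI was not above that of epithelial cells.

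Neutrophil and homeostatic chemokines were mixed. Of 4 neutrophil-attracting genes measured, 1 was called higher and 1 lower, and of 3 homeostatic genes measured, 1 was called higher and 0 lower. Cxcl1, a ligand of the neutrophil receptor Cxcr2, stood at 1517 CPM in members, 877 CPM in other Cherry_Positive and 306 CPM in other Cherry_Negative cells, a ratio of 1.73 within the Cherry_Positive library that stays under the 2-fold limit. Cxcl5 was higher at 129 CPM in members against 10.5 CPM, with 59.1% of the member UMIs in 1 cell, and Cxcl15, an epithelial chemokine, was lower at 5.85 CPM in members against 48.2 CPM. Cxcl12, the homeostatic ligand of Cxcr4, stood at 272 CPM in members and 343 CPM in other cells, and Cxcl14 at 672 CPM and 804 CPM, and neither was called. Cxcl13, a B cell chemokine, was called higher at 285 CPM in members against 25.1 CPM, and 45.5% of its UMIs came from 1 member.

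Of 10 stromal cytokine genes measured, 5 were higher and 1 lower in members. Il6, an inflammatory cytokine that drives the acute phase response, stood at 915 CPM in members, 399 CPM in other Cherry_Positive and 141 CPM in other Cherry_Negative cells. The ratio within the Cherry_Positive library was 2.29 (2.09 to 2.52). Lif, of the same cytokine family, was 2.04 times higher (1.55 to 2.68), Csf1, the macrophage growth factor, 2.59 times (2.02 to 3.33), and Il15, a growth factor of natural killer and memory T cells, 4.57 times (2.11 to 10.3) at 22.2 CPM in members against 4.86 CPM. Tslp, an alarmin, stood at 119 CPM in members and 140 CPM in other cells and was not called.

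The interferon gamma response list held 28 genes, of which 26 had a single gene ID and 24 passed the minimum of 30 UMIs, and these 24 were all higher in members, with a median log2 ratio of 2.62 against -0.17 over all genes. These genes are known to answer to interferon gamma, and several belong to GTPase families that act against intracellular pathogens. This list, like the others, was chosen with earlier results of these data known. It holds Fam26f, which like Saa3 and Timp1 is a marker given with these cells. The cells were also chosen on Cxcl9 and Cxcl10, which are interferon targets, so the count of higher genes is a description. Irf1, a transcription factor of the pathway, stood at 625 CPM in members, 136 CPM in other Cherry_Positive and 179 CPM in other Cherry_Negative alveolar fibroblasts, a ratio of 4.60 (4.01 to 5.29) within the Cherry_Positive library. The other Cherry_Positive cells thus stood near the Cherry_Negative level for Irf1, which was not called between those groups.

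The guanylate-binding proteins and immunity-related GTPases measured on the list were all among the higher genes. Gbp4 stood at 1017 CPM in members, 91.5 CPM in other Cherry_Positive and 11.4 CPM in other Cherry_Negative cells, a ratio of 11.1 (9.59 to 12.9). Gbp5 was 11.3 times higher (8.30 to 15.6) at 242 CPM in members against 21.5 CPM, Gbp2b, outside the list, 8.74 times (7.66 to 9.99), Ifi47 7.72 times (6.39 to 9.36), and Igtp 6.05 times (5.34 to 6.86). Iigp1 stood at 3175 CPM in members against 838 CPM, a ratio of 3.79 (3.58 to 4.01). Members of these families are similar in sequence, and the counting may have split reads between copies, so single members carry that uncertainty. Fam26f, also known as Calhm6 and linked to immune cell contacts, stood at 843 CPM in members, 52.3 CPM in other Cherry_Positive and 6.08 CPM in other Cherry_Negative cells, a ratio of 16.1 (13.4 to 19.6). Thinned to 2000 UMIs per cell, 65.7% of members, 7.98% of other Cherry_Positive and 0.885% of other Cherry_Negative alveolar fibroblasts held a Fam26f UMI, and 2.07% of Cherry_Positive endothelial cells, whose median depth was 3237 UMIs. Unthinned, these shares were 80.1%, 12.6%, 1.55% and 2.78%.

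Some interferon gamma targets were seen in a minority of members. Ubd, a ubiquitin-like modifier, stood at 216 CPM in members and 6.48 CPM in other Cherry_Positive cells, a ratio of 33.4 (20.02 to 59.6), with a UMI in 19.9% of members, 2.27% of the other cells and 8.33% of Cherry_Positive endothelial cells, whose level was 367 CPM, and 11.9% of epithelial cells, without thinning. Cd274, which encodes the T cell inhibitory ligand PD-L1, stood at 140 CPM in members, 10.9 CPM in other Cherry_Positive and 2.28 CPM in other Cherry_Negative cells, a ratio of 12.8 (8.40 to 20.3). At 2000 UMIs per cell, Cd274 was seen in 21.6% of members, 2.52% of other Cherry_Positive alveolar fibroblasts and 9.96% of Cherry_Positive endothelial cells, which can express it. Of 6 measured T cell restraining genes, 4 were higher in members, among them Lgals9 at 250 CPM in members against 116 CPM and Ptges, a prostaglandin E synthase, at 229 CPM against 94.4 CPM.

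Of 22 measured genes of the type I interferon list, 19 were higher and 0 lower, with a median log2 ratio of 2.34. The list overlaps in biology with the previous one, since many of its genes answer to both interferon types. Isg15, a ubiquitin-like protein, stood at 1253 CPM in members, 215 CPM in other Cherry_Positive and 87.4 CPM in other Cherry_Negative cells, a ratio of 5.81 (5.23 to 6.46). Ifit3, an antiviral protein, stood at 470, 75.3 and 77.5 CPM, a ratio of 6.24 (5.23 to 7.47) with no difference called between the 2 sets of other cells. Irf7 was 4.45 times higher (3.66 to 5.41) and Bst2, a virion tether, 3.51 times (3.22 to 3.84). Rsad2, the antiviral enzyme viperin, was 43.1 times higher (24.6 to 82.4) at 227 CPM in members against 5.27 CPM, but a UMI was found in 16.2% of members, 2.27% of other Cherry_Positive and 5.56% of endothelial cells, without thinning, and 1 member gave 27.3% of the member UMIs. Ifitm3 stood at 9189 CPM in members and 5165 CPM in other Cherry_Positive cells and was not called.

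The genes that receive and transmit the interferon signal were mostly not called. Of 12 measured, 2 were higher, among them the feedback inhibitor Socs1, which is itself an interferon target. Ifngr1, the ligand-binding chain of the interferon gamma receptor, stood at 263 CPM in members, 334 CPM in other Cherry_Positive and 485 CPM in other Cherry_Negative cells. Ifngr2 stood at 84.2, 70.5 and 50.1 CPM, Ifnar1 at 23.4, 26.7 and 27.3 CPM, and Ifnar2 at 269, 215 and 219 CPM in the same groups. Levels of the receptor genes in members thus stayed within 2-fold of those in the other cells. Of the interferon ligands only Ifng and Ifnb1 were counted, and both were nearly absent from these CD45- libraries. Ifng had 1 UMI in each library, and Ifnb1 had none, which allows a UMI in up to 0.169% of Cherry_Positive and 0.107% of Cherry_Negative kept cells. Receptors for the chemokines were rare too, with 6 and 4 Cxcr3 UMIs and 33 and 19 Ccr2 UMIs in the Cherry_Positive and Cherry_Negative libraries.

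Genes of MHC class I presentation formed a further group, with 20 of 22 higher, 0 lower and a median log2 ratio of 1.49. B2m, the light chain of class I molecules, stood at 10059 CPM in members, 4209 CPM in other Cherry_Positive and 2684 CPM in other Cherry_Negative cells, a ratio of 2.39 (2.32 to 2.46). The heavy chains H2-K1 and H2-D1 were 2.72 (2.54 to 2.91) and 2.52 times higher (2.42 to 2.63). The peptide transporter gene Tap1 was 5.07 times higher (4.30 to 5.99) at 472 CPM in members against 93.2 CPM, the immunoproteasome subunit gene Psmb9 4.44 times (3.76 to 5.25), and Nlrc5, the class I transactivator, 5.51 times (2.54 to 12.7). The chaperones Pdia3 and Calr, which take part in peptide loading, had ratios of 0.898 and 1.07 and were not called. Of 6 class II genes measured, 0 were called. Cd74 stood at 250 CPM in members, 138 CPM in other Cherry_Positive and 166 CPM in other Cherry_Negative cells, and H2-Ab1 at 85.4, 49.8 and 28.1 CPM.

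**Figure D4:**
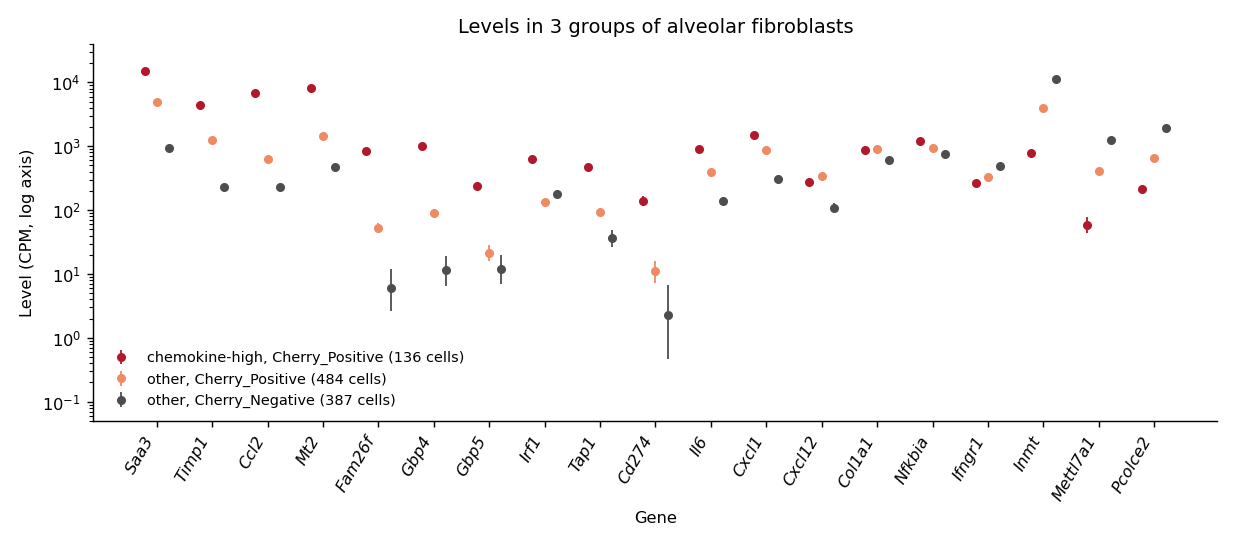
Levels of 19 genes in chemokine-high (136) and other (484) alveolar fibroblasts of the Cherry_Positive library and in other (387) alveolar fibroblasts of the Cherry_Negative library, in CPM of summed UMIs on a log axis, with 95% Poisson intervals for counting error. Fam26f lies at 843, 52.3 and 6.08 CPM in these groups, and Inmt runs the other way at 792, 4024 and 11157 CPM.

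Of 9 acute phase genes measured, 7 were higher and 0 lower in members, with a median log2 ratio of 1.48. In the other Cherry_Positive cells set against the other Cherry_Negative cells, 8 of 9 acute phase genes and 8 of 21 interferon gamma genes were higher. Saa3, a serum amyloid A made outside the liver, stood at 14897 CPM in members, 4978 CPM in other Cherry_Positive and 931 CPM in other Cherry_Negative alveolar fibroblasts. Its ratio was 2.99 (2.92 to 3.07) between members and other Cherry_Positive cells, and 5.35 between other Cherry_Positive and other Cherry_Negative cells. At 2000 UMIs per cell, Saa3 was seen in 71.6% of members, 52.3% of other Cherry_Positive and 4.72% of other Cherry_Negative cells, and in 21.2% of Cherry_Positive endothelial cells. Lcn2, an iron-carrier binding protein, stood at 2174, 565 and 179 CPM in the 3 fibroblast groups, a member ratio of 3.85 (3.59 to 4.13), and Hp, the haemoglobin scavenger haptoglobin, was 2.80 times higher (2.61 to 3.01). Serpina3g, a protease inhibitor gene also on the interferon gamma list, was 5.36 times higher (4.67 to 6.17), while Serpina3n stood at 532 CPM in members and 606 CPM in other cells and was not called. The Serpina3 genes are near copies of each other, with the same uncertainty of counting.

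Of 9 complement genes, 2 were higher. Cfb and C2, the paired proteases of the alternative and classical pathways, stood at 483 and 216 CPM in members against 169 and 78.6 CPM in other Cherry_Positive cells. C3, the central component, stood at 1389 CPM in members, 949 CPM in other Cherry_Positive and 305 CPM in other Cherry_Negative cells and was not called in members.

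NF-kB target genes were split, with 9 of 22 higher, 0 lower and a median log2 ratio of 0.93. Icam1, a leukocyte adhesion molecule, stood at 619 CPM in members, 153 CPM in other Cherry_Positive and 177 CPM in other Cherry_Negative cells, a ratio of 4.05 (3.54 to 4.64). Sod2, the mitochondrial superoxide dismutase, was 2.93 times higher (2.72 to 3.16) and Tnip1, an inhibitor of the pathway, 4.17 times (3.11 to 5.61). The feedback inhibitor Nfkbia stood at 1230, 951 and 755 CPM in the 3 groups, and Nfkbiz, a co-regulator, at 262, 268 and 267 CPM, and neither was called. Vcam1, which binds integrins of lymphocytes and monocytes, reached 1.91 times (1.77 to 2.05), just under the 2-fold limit.

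Metal and hypoxia genes were also divided, with 6 of 16 higher and 0 lower. Mt2, a metal-binding metallothionein, stood at 8289 CPM in members, 1446 CPM in other Cherry_Positive and 469 CPM in other Cherry_Negative cells, a ratio of 5.73 (5.51 to 5.97), and Mt1 was 2.83 times higher (2.72 to 2.93). Hk2, a hexokinase, was 4.24 times higher (3.58 to 5.03) at 402 CPM in members against 94.8 CPM, and Hif1a, the hypoxia factor, 2.89 times (2.19 to 3.81). Vegfa, a hypoxia target, stood at 88.9 CPM in members, 97.2 CPM in other Cherry_Positive and 141 CPM in other Cherry_Negative cells and was not called. Immediate early genes, which respond to tissue dissociation among other stimuli, were not generally higher, with 2 of 20 called higher and 1 lower. Fos stood at 2553 CPM in members, 3878 CPM in other Cherry_Positive and 6343 CPM in other Cherry_Negative cells.

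Of the other genes that the ranking by counting interval picked in the higher direction, Lipg, an endothelial-type lipase, stood at 56.1 CPM in members against 2.43 CPM, and Rnd1 at 165 CPM against 13.4 CPM. Gja4, a gap junction protein, stood at 72.5 CPM against 4.86 CPM, and the interferon-linked enzymes Cmpk2 and Irg1 at 50.3 and 45.6 CPM against 2.84 and 2.43 CPM. UMIs of Gja4 lay in 24 members, of Cmpk2 in 18 and of Irg1 in 13. Ranked again among genes seen in at least 20% of the cells of the higher group, a choice made after the values were seen, the list also held Tgtp2, Phf11b, Ifit2, Serpina3f, Gm16685 and Ly6a. Ly6a, known as Sca-1 and itself an interferon target, stood at 1371 CPM in members, 213 CPM in other Cherry_Positive and 78.2 CPM in other Cherry_Negative cells, a ratio of 6.42 (5.79 to 7.13).

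Genes that mark the resting alveolar fibroblast were lower in members. Of 25 identity genes outside the rule, 15 were called lower and 0 higher, with a median log2 ratio of -1.27. Inmt, a methyltransferase typical of these cells, stood at 792 CPM in members, 4024 CPM in other Cherry_Positive and 11157 CPM in other Cherry_Negative alveolar fibroblasts. It was 5.08-fold lower in members than in other Cherry_Positive cells (ratio 0.197, 0.182 to 0.213). Mettl7a1, another methyltransferase, was 6.90-fold lower at 58.5 CPM in members against 403 CPM, and Pcolce2, a collagen-processing enhancer, 3.12-fold lower at 213 CPM against 664 CPM.

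Further identity genes called lower included growth factors and an integrin. Figf, also named Vegfd and a lymphatic growth factor, was 4.16-fold lower at 98.2 CPM in members against 409 CPM, Wnt2, which acts on alveolar epithelium, 2.42-fold lower at 65.5 CPM against 159 CPM, and Bmp3 5.34-fold lower. Itga8, the integrin chain that binds nephronectin, was 3.00-fold lower. Gas6, a ligand of Axl and other receptors from the list of metastatic niche factors, was 2.83-fold lower at 166 CPM in members against 469 CPM. On that list 4 of 18 genes were lower, 0 higher and 14 not called, and Igf1, a growth factor, stood at 505 CPM in members, 293 CPM in other Cherry_Positive and 138 CPM in other Cherry_Negative cells and was not called.

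Not all identity genes were called lower, though 24 of the 25 had a ratio below 1. Pdgfra, the receptor that marks lung fibroblasts, stood at 212 CPM in members, 303 CPM in other Cherry_Positive and 377 CPM in other Cherry_Negative cells and was not called. Plin2, a lipid droplet protein, stood at 297, 366 and 349 CPM, and Mfap4, a microfibril protein, at 4413, 7895 and 16332 CPM, and neither was called in members against other Cherry_Positive cells. Of the 6 genes that the rule itself used, 4 were lower. Tcf21 stood at 157 CPM in members, 564 CPM in other Cherry_Positive and 1560 CPM in other Cherry_Negative cells, while Npnt stood at 337, 626 and 1295 CPM and Ces1d at 809, 1579 and 1697 CPM without a call. At 2000 UMIs per cell, the amino acid transporter Slc7a10 was seen in 9.70% of members, 25.6% of other Cherry_Positive and 59.9% of other Cherry_Negative cells, and in 0 of 241 Cherry_Positive endothelial cells, where the exact binomial interval reaches 1.52%. Unthinned, these shares were 23.5%, 40.7%, 72.9% and 0.397%.

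Gsn, an actin-severing protein, was 2.88-fold lower at 1420 CPM in members against 4095 CPM, Selenbp1 4.73-fold lower and Tmem119 4.04-fold lower. The genes with the widest ratios in the lower direction were of another kind. They were mainly airway and alveolar epithelial genes, and most of their UMIs in the other cells came from few cells. Scgb3a1, an airway secretory protein, stood at 4.68 CPM in members and 577 CPM in other Cherry_Positive cells, of which 99.0% lay in 1 cell. For Reg3g 1 cell held 100% of the UMIs of the other cells, for Retnla 96.8%, for Chil1 92.1%, for Sftpc 82.6%, and for Scgb1a1, at 374 CPM in members against 11834 CPM, 40.3%. Leaving out cells with 2 or more UMIs of 6 epithelial, endothelial and leukocyte genes, a choice made after the values were seen, kept all 136 members and 474 of the 484 other cells. It gave 323 higher and 565 lower genes, of which 309 and 535 were shared with the calls above. A stricter limit on 3 or more UMIs of all endothelial, epithelial and leukocyte markers kept 43 members and 229 other cells, and gave 203 higher and 357 lower genes, of which 145 and 143 were shared.

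Matrix genes differed little between members and other Cherry_Positive cells, with 2 of 26 called higher and 1 lower. Col1a1 stood at 882 CPM in members, 921 CPM in other Cherry_Positive and 618 CPM in other Cherry_Negative cells, Col3a1 at 1994, 1790 and 939 CPM, and Fn1 at 1747, 1980 and 1648 CPM. The genes called higher were Timp1, an inhibitor of matrix proteases, at 4370 CPM in members, 1236 CPM in other Cherry_Positive and 227 CPM in other Cherry_Negative cells (ratio 3.54, 3.37 to 3.71), and Fst, an activin antagonist, at 203 CPM in members against 72.9 CPM, with 39.1% of member UMIs in 1 cell. Against other Cherry_Negative cells, 11 of 24 matrix genes were higher in members, and 12 of 26 in the other Cherry_Positive cells. Of 10 cell cycle genes, the 3 called higher were Ccnb1, Cdk1 and Ube2c, each with at least 98.0% of its member UMIs in 1 cell.

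Several gene groups were graded with the chemokine share, below the limit as well as among the members. Cherry_Positive alveolar fibroblasts were divided into 226 cells with no UMI of the 3 chemokines, 178 with a share under 0.1%, 80 with 0.1% to under 0.5%, and the members in 3 sets of 46, 45 and 45 cells by rising share. Summed over the interferon gamma response list, and leaving the 3 chemokines out of all sums, levels were 1860, 1758, 4692, 9119, 14126 and 14932 CPM in these 6 sets. The list was flat at shares under 0.1% and climbed from there to the middle set of members. Ccl2 alone stood at 209, 410, 2053, 2884, 4859 and 12732 CPM and made up most of the summed monocyte and eosinophil chemokines, at 238, 448, 2192, 3312, 5158 and 13266 CPM. Between the upper and lower sets of members, 1 of the 3 genes measured on that list was higher and 2 were lower, with a median log2 ratio of -1.15. NF-kB targets had 3424, 3620, 5297, 5711, 7609 and 8790 CPM, and MHC class I genes 8418, 8837, 17228, 22783, 23642 and 28824 CPM. Among single genes, Rsad2 had 1.09, 1.83, 21.9, 10.5, 131 and 524 CPM, so its level lay mainly in the upper members.

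Identity genes ran in the other direction, at 26971, 17781, 15108, 12456, 10234 and 11292 CPM, and Inmt alone at 5758, 3364, 2123, 1156, 886 and 355 CPM. Their lower level was thus already seen at shares under 0.1%, where the interferon gamma list was flat. Matrix genes had 15358, 16450, 19518, 19467, 20228 and 21576 CPM. The depth of the cells moved with the share as well, with medians of 3641, 5166, 4700, 4730, 5859 and 6043 UMIs, and its part in these orders was not tested. Between the upper and lower sets of members 108 of 2650 genes were higher (4.08%), and of the interferon gamma list 7 of 22 were higher. The same cells' chemokine UMIs defined these sets, so the order is a description.

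**Figure D5:**
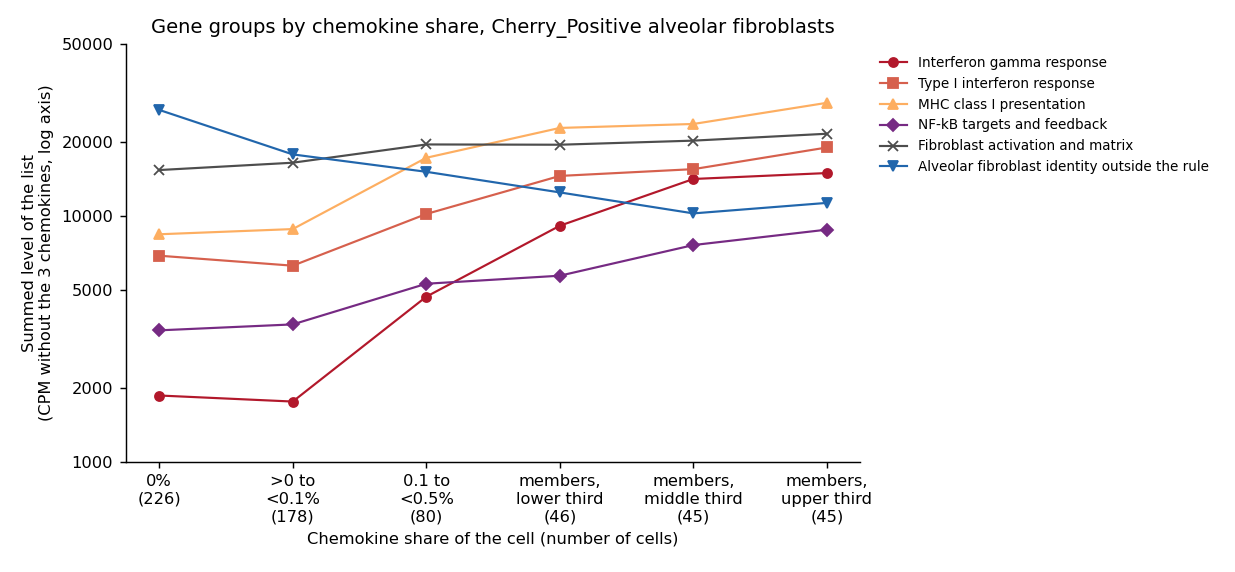
Summed level of 6 gene lists, in CPM without the 3 chemokines on a log axis, in 6 sets of Cherry_Positive alveolar fibroblasts ordered by chemokine share, with the number of cells in brackets. The interferon gamma list runs between 1758 and 14932 CPM and the identity list between 26971 and 10234 CPM, while matrix genes stay between 15358 and 21576 CPM.

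In 8 members Ccl7 gave at least as many UMIs as Cxcl9 and Cxcl10 together, and the other 128 were led by the CXC chemokines. Between the Ccl7-led and CXC-led members 68 of 3557 genes were higher (1.91%) and 98 lower (2.76%). Saa3 stood at 65538 CPM in Ccl7-led and 12224 CPM in CXC-led members, but 65.0% of the Saa3 UMIs of the Ccl7-led members lay in 1 cell. Cxcl13 stood at 4128 CPM and 82.5 CPM in the same order, with 62.7% of the Ccl7-led UMIs in 1 cell. When the cell with most UMIs of each gene was left out on each side, 12 genes were higher and 191 lower. This takes 1 of 8 cells on the Ccl7-led side and 1 of 128 on the other, so it lowers the ratios by construction.

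Between the Ccl7-led and CXC-led members, interferon targets were called in both directions. Of the interferon gamma list 3 of 24 genes were lower and 0 higher. Of the type I list 3 of 20 were higher and 0 lower. Over all genes 2.76% were lower and 1.91% higher. Both list shares lay above these, but each rests on 3 called genes and on 8 Ccl7-led members. The median log2 ratios were -0.40 and 0.41, against -0.12 over all genes. The split itself selects for low Cxcl9 and Cxcl10, which are interferon targets. Homeostatic chemokines were higher in 3 of 3 and class II genes in 2 of 3. The class II genes were Cd74 and H2-Ab1, each with UMIs in 3 of the 8 Ccl7-led members. Of their Ccl7-led UMIs, 64.7% and 56.25% lay in 1 cell. Irf7 stood at 1096 CPM in Ccl7-led and 272 CPM in CXC-led members, with 46.8% of the Ccl7-led UMIs in 1 cell. For Ifi27l2a, also called higher on the type I list, 65.1% of the Ccl7-led UMIs lay in 1 cell. Iigp1 stood at 1143 CPM in Ccl7-led and 3282 CPM in CXC-led members, and was found in all 8 and in 126 of 128 cells. Ubd and Cd40, a costimulatory receptor, each had 185 UMIs in CXC-led members, or 228 CPM, and none in Ccl7-led members, where the limit of 3 counts allows 70.0 CPM. Irf1 stood at 327 CPM and 640 CPM, and Inmt at 1096 CPM and 776 CPM. Immediate early genes were lower in 5 of 19, among them Klf6 at 117 CPM in Ccl7-led against 528 CPM in CXC-led members. With 8 cells and 42876 UMIs on the Ccl7-led side, each such level rests on few molecules.

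The same limit on chemokine share picked cells in the other mesenchymal classes. It held for 54 of 343 adventitial fibroblasts of the Cherry_Positive library (15.7%, 12.1 to 20.04) and 5 of 179 of the Cherry_Negative library (2.79%), for 55 of 255 and 6 of 147 myofibroblasts (21.6%, 16.7 to 27.1, and 4.08%), and for 16 of 52 and 1 of 30 pericytes (30.8%, 18.7 to 45.1, and 3.33%). The share among Cherry_Positive alveolar fibroblasts, 21.9% (18.7 to 25.4), thus overlapped in its interval with each of those classes. Among mesenchymal cells in none of the 4 classes, the limit held for 28 of 69 Cherry_Positive cells (40.6%, 28.9 to 53.1). In the Cherry_Negative library it held for 0 of 10 such cells. The Cherry_Positive interval of these unplaced cells lay above that of alveolar fibroblasts. Of kept cells that were not mesenchymal, the limit held for 23 of 431 in the Cherry_Positive library (5.34%) and 19 of 2057 in the Cherry_Negative library (0.924%).

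Interferon gamma targets were higher in the chemokine-high cells of each class, and the levels of Saa3 and Timp1 differed between classes. In Cherry_Positive adventitial fibroblasts, 22 of 23 interferon gamma genes were higher in chemokine-high than in other cells, where 279 of 6872 genes were higher in all (4.06%). In myofibroblasts these were 21 of 21 and 218 of 4944 (4.41%), and in pericytes 11 of 16 and 89 of 1109 (8.03%). Saa3 stood at 14897 CPM in chemokine-high alveolar fibroblasts, 11326 CPM in chemokine-high adventitial fibroblasts, 2292 CPM in chemokine-high myofibroblasts and 115 CPM in chemokine-high pericytes. In the other cells of these classes Saa3 stood at 4978, 2810, 536 and 132 CPM. Timp1 had the same order among chemokine-high cells, at 4370, 3818, 1127 and 115 CPM.

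Fam26f and Irf1 did not follow that order. Fam26f stood at 843 CPM in chemokine-high and 52.3 CPM in other alveolar fibroblasts, 392 and 44.2 CPM in adventitial fibroblasts, 414 and 30.4 CPM in myofibroblasts, and 1540 and 171 CPM in pericytes. Irf1 stood at 625 and 136 CPM in alveolar fibroblasts, 309 and 136 CPM in adventitial fibroblasts, 526 and 204 CPM in myofibroblasts, and 1411 and 388 CPM in pericytes. Ccl2 stood at 6927 and 640 CPM, 4329 and 498 CPM, 6338 and 519 CPM, and 1627 and 730 CPM in the same classes. Whether these differences between classes exceed the spread between animals was not tested, since each class comes from the same library.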

How the data were processed

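Lung CD45- cells were profiled on 10x Chromium (3′ chemistry) and sequenced on a HiSeq4000, per the labels. The authors deposited raw UMI counts per gene and barcode; Cell Ranger 2.1.1, R 4.0.3, Seurat 4.0.2 and mm10 are named in the submitters' processing notes. No cell types or normalized values were used. Cells with at least 500 genes and at most 10% mitochondrial UMIs were kept (4581 of 4687 barcodes), and classes came from marker sums. No doublet caller was run; markers of other cell types were counted instead. UMIs were summed per group and scaled to CPM (Python 3.11.15, numpy 2.4.6, scipy 1.17.1, matplotlib 3.10.9). Intervals are exact 95% Poisson or binomial, and cover counting error only. Log2 ratios had 0.5 UMI added. Where a group held no UMI of a gene, 3 counts served as the limit. Thinning drew 2000 UMIs per cell, leaving out 2 members, 8 other Cherry_Positive, 48 other Cherry_Negative and 11 endothelial cells. The ratio step was tested on simulated counts. Named genes were the 15 furthest from 1 each way by the interval bound nearest 1 (8 for Ccl7-led against CXC-led members), at 20 CPM or more in either group, plus genes of the rule, of 20 lists and of the markers. The members and lists were chosen with earlier results of these data known. Alternatives covered cell filters, chemokine limits, scaling, thinning, free RNA and single cells.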

Additional observations from a re-analysis of the deposited data

How the results depend on the processing

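The chemokine-high share of Cherry_Positive alveolar fibroblasts was 27.4% with a limit of 0.25%, 16.1% with a limit of 1%, and 15.8% (43 of 272) with cells of 3 or more endothelial, epithelial or leukocyte marker UMIs left out; the Cherry_Negative share was 0% under the last 2. That marker filter gave 203 higher and 357 lower genes in members against other cells (145 and 143 shared with the main calls), 32 lower genes in Ccl7-led against CXC-led members, and a log2 ratio of 0.14 for Sftpc, whose main ratio was below 1. Trimmed mean scaling gave 369 lower genes. With the top cell of each gene left out, Ccl7-led members had 12 higher and 191 lower genes, of which 12 and 81 were shared; this takes 1 of 8 cells on one side and 1 of 128 on the other, and so lowers ratios by construction. With cells of 2 or more UMIs of 6 epithelial, endothelial and leukocyte genes left out, an alternative chosen after seeing the data, the log2 ratio of Sftpa1 was 0.29, and its main ratio was below 1. The cause of the other shifts was not tested. The other 55 alternative values of shares and call counts stayed within counting error or within 1.5 times, and 205 of 224 list medians within their typical counting error. Of single-gene log2 ratios, 495 alternative values stayed inside the main counting interval, 91 moved outside it with the same sign, and the 2 above reversed. Scgb1a1 came to -0.16 under the marker filter. Each group is 1 library, so no replicate could be left out, and the planned comparison of Cherry_Positive with Cherry_Negative members was not run because 1 Cherry_Negative member was found. No paired analysis was possible because each library is the only one of its group. Depth limits genes under 30 UMIs, which were not called.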
